A study of Mus musculus with 39 samples.

Results

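The collagen genes of the mouse were followed in 3 tissues of a polycystic ovary syndrome (PCOS) model, namely the liver, a skeletal muscle and white adipose tissue (white fat). Members were the protein-coding genes whose name reads Col, a number, a and a number, and 44 of the 30671 genes listed in any deposited table met this rule. They comprised 11 fibrillar chains, 6 type IV chains of basement membranes, 6 type VI chains of microfibrils, 2 multiplexins, 9 fibril-associated chains and 10 others, mostly transmembrane or network-forming. In liver 37 members were listed, in muscle 43 and in white fat 44. The members not listed in liver were Col2a1, Col9a1, Col9a2, Col11a1, Col19a1, Col26a1 and Col28a1, and Col6a4 was the member not listed in muscle.

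All mice were C57Bl6/J. PCOS roxadustat and PCOS vehicle mice had received letrozole, an aromatase inhibitor, before puberty. At 12 weeks of age they began 6 weeks of oral roxadustat, a drug that stabilises hypoxia-inducible factor (HIF) by blocking its prolyl hydroxylases, or of vehicle. Control mice received vehicle. Liver and muscle each had 4 mice per group. White fat had 5 PCOS roxadustat, 6 PCOS vehicle and 4 control mice. Of the 18 mice, 9 gave all 3 tissues. The fat depot and the muscle are not named in the sources used here. PCOS roxadustat differed from control by letrozole and roxadustat together, and no group here received roxadustat without letrozole. The comparisons within a tissue share libraries, since each group enters 2 of them.

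Collagens are triple helices of 3 chains, and most genes supply a chain that works only with a partner. Fibrillar collagens, led by type I (Col1a1, Col1a2), type III (Col3a1) and the fibril-nucleating type V (Col5a1, Col5a2, Col5a3), carry tension. Type IV (Col4a1 with Col4a2 in most tissues) forms the mesh of basement membranes, type VI links cells to that mesh, and the multiplexins Col15a1 and Col18a1 sit at its outer face. In fat each adipocyte is wrapped in a basement membrane, and in liver the hepatic stellate cell is the best-known source of fibrillar collagen.

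Liver libraries held 12389970 to 19350634 recovered reads each, muscle libraries 14332757 to 18627919, and white fat libraries 13664558 to 19639244. Defining markers matched the labelled tissues. The median FPKM (fragments per kilobase, scaled by the authors for each library) of Alb was 36034 in liver, that of Ckm 5425 in muscle and that of Adipoq 1498 in white fat. The library size implied by this scaling, over the recovered reads, was 0.776 to 0.931 in liver and 0.697 to 0.864 in muscle. In white fat it was 1.36 to 1.58 in PCOS roxadustat, 1.31 to 1.59 in PCOS vehicle and 1.26 to 1.41 in control mice. The FPKM thus carry a scaling beyond recovered depth, and its part in the results was not tested. In white fat the library of PCOS vehicle mouse 785 had the fewest genes with a read, 14082, and in liver that of control mouse 801, with 15334. The mitochondrial share of reads in white fat was 6.60 to 13.6% in PCOS roxadustat, 6.71 to 14.7% in PCOS vehicle and 11.4 to 21.6% in control mice, and its part in the results below was not tested.

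The tissues held different collagen repertoires. White fat was the richest: the members took 0.167 to 0.438% of all FPKM in PCOS roxadustat mice (median 0.351%), 0.0796 to 0.445% in PCOS vehicle mice (0.251%) and 0.0885 to 0.145% in control mice (0.106%). The library totals also differed, at 216370 to 295955 FPKM in PCOS roxadustat and 287203 to 372599 FPKM in control white fat, which widens the contrast in shares. The summed collagen FPKM itself had medians of 790 in PCOS roxadustat, 651 in PCOS vehicle and 351 in control mice. In liver the same share was 0.0322 to 0.0412% in PCOS roxadustat, 0.0324 to 0.0447% in PCOS vehicle and 0.0186 to 0.0372% in control mice. In muscle it was 0.0183 to 0.0305% in PCOS roxadustat, 0.0183 to 0.0414% in PCOS vehicle and 0.0268 to 0.0402% in control mice. White fat RNA was extracted with another kit than liver and muscle RNA, so levels between tissues are given with no test. Over the 12 liver libraries the multiplexins made up a median of 72.1% of the collagen FPKM, nearly all of it Col18a1. Muscle was led by fibrillar (36.8%) and type IV chains (29.9%), and white fat by fibrillar (31.8%), type IV (29.6%) and type VI chains (21.1%).

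**Figure D1:**
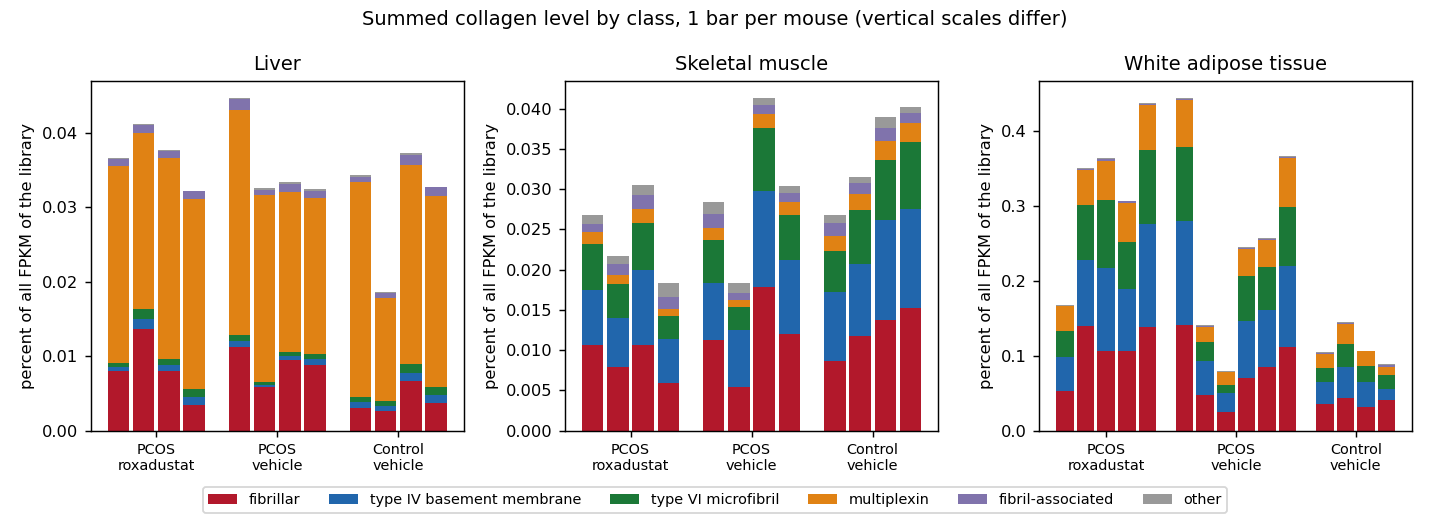
Share of all FPKM (percent, stacked bars) taken by each collagen class, 1 bar per mouse, in liver, skeletal muscle and white fat; the vertical scales differ between tissues. White fat bars reach 0.438% in PCOS roxadustat and 0.445% in PCOS vehicle mice against 0.145% in control mice, and multiplexins fill most of each liver bar.

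Gene by gene, on the TPM scale (FPKM rescaled to the same total in each library, so that genes are compared per length), the members with the highest median in white fat were Col4a1 at 411 TPM, Col6a1 at 366 TPM and Col4a2 at 316 TPM, followed by Col15a1 at 297 TPM, Col3a1 at 201 TPM and Col5a3 at 191 TPM. In liver Col18a1, whose product carries endostatin, had a median of 254 TPM, Col5a3 29.8 TPM and Col27a1, a fibrillar chain best known from cartilage, 23.8 TPM. Type I and III chains were low in liver, at 1.83 TPM for Col1a1, 1.70 TPM for Col1a2 and 4.71 TPM for Col3a1. In muscle Col4a1 led at 45.5 TPM, then Col4a2 at 38.6 TPM and Col3a1 at 35.0 TPM. A median of at least 1 TPM was reached by 15 members in liver, 23 in muscle and 23 in white fat. In liver Col18a1 and Col27a1 were above every library of the other tissues. In muscle Col7a1, the anchoring fibril collagen, Col22a1, found at the muscle-tendon junction, and Col24a1, a minor fibrillar chain, stood apart in the same way. In white fat 9 members did, among them Col4a1, Col6a1, Col15a1 and Col3a1.

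Sequence upstream of 3 fibrillar genes is shown because Col5a3 and Col27a1 carry the liver result, Col5a3 also has the largest difference among the members that passed in white fat, and Col1a2 is the type I partner of Col1a1 that did not pass there. The 250 bases before the start site are from RefSeq (GRCm38.p6), 5′ to 3′ on the gene's strand. Capitals mark GCGTG and ACGTG, the core letters of hypoxia response elements, and CCAAT, each searched on both strands, so that ACGTG may read CACGT as printed. The letters CACGTG would count as ACGTG on either strand.
Col5a3, chr9:20815068-20815317, minus strand: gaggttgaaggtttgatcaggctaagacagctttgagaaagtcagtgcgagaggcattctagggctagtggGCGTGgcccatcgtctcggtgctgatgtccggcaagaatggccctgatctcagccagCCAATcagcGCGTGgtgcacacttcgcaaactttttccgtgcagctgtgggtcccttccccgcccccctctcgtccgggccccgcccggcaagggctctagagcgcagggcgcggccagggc
Col27a1, chr4:63215162-63215411, plus strand: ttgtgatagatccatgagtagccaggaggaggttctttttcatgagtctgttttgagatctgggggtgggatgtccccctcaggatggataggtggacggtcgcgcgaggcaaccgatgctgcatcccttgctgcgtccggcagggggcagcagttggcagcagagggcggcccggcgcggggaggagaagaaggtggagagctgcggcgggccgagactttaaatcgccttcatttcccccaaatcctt
Col1a2, chr6:4505368-4505617, plus strand: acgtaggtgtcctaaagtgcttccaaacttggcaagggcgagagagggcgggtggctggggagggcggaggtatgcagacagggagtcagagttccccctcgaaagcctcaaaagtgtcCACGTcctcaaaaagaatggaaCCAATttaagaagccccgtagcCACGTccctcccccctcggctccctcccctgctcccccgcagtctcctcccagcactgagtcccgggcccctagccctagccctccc
The Col5a3 window held 2 GCGTG and 1 CCAAT, that of Col1a2 held 2 ACGTG and 1 CCAAT, and that of Col27a1 held none of the 3, which says only that these letters are not in this window. Of the 44 members 35 matched an entry, Col1a1 not among them. ACGTG was in 5 of the 35 against 16.6% of all 32841 promoter windows of this length, GCGTG in 8 against 28.2%, and CCAAT in 13 against 33.9%. A match is a description of letters, not a binding site.

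In white fat the comparison of PCOS roxadustat with control mice sets letrozole plus roxadustat against vehicle control mice. Here 11 of 32 tested members were higher and 0 lower by limma at an adjusted p under 0.05, against 5.79% of all 15499 genes tested in either direction, 3.14% higher and 2.65% lower. The members that rose were Col1a1, Col5a1, Col5a2 and Col5a3 among the fibrillar chains, Col4a1 and Col4a2 of basement membranes, Col6a1 and Col6a2 of type VI, both multiplexins Col15a1 and Col18a1, and the transmembrane collagen Col23a1. Of the 32 tested members 10 had every PCOS roxadustat mouse above every control mouse, namely the called members other than Col23a1. Such separation upward was seen in 7.2% of all genes and downward in 5.13%, where 0 members had it. At an unadjusted p under 0.05, 14 members were higher and 3 lower, against 14.5% and 12.2% of all genes. The median log2 difference of the 32 members was 0.39, against 0.02 for all genes. In bulk tissue more cells of a type and more RNA per cell cannot be told apart.

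The counts of called members depended on single mice. Without PCOS roxadustat mouse 809 or control mouse 778 no member passed, without PCOS roxadustat mouse 795 only Col6a1 did, and the count was 4 when PCOS roxadustat mouse 767 or control mouse 802 was left out and 6 when control mouse 779 was. It was 1 with no filter on low values, 0 when the 3 arms shared 1 fit, and 14, all higher, on TPM, where the median of all genes itself moved by 0.39.

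Among the fibrillar chains Col5a3 (chromosome 9, 20681346 to 20726363 on the minus strand in mm39), the third type V chain, had the largest log2 difference of the 11. It had 43.6, 70.4, 67.3, 68.5 and 84.8 FPKM in PCOS roxadustat mice, against 23.3, 30.4, 28.7 and 10.3 FPKM in control mice. Every PCOS roxadustat mouse was above every control mouse. The log2 difference was 1.59 ± 0.30 (SE), with an adjusted p of 0.0220. In PCOS vehicle mice Col5a3 ran over 28.8, 51.3 and 108 FPKM (lowest, median, highest), with the lowest PCOS vehicle mouse above 3 of the 4 control mice.

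Col1a1 (chromosome 11, 94827050 to 94843868), which encodes the chain present as a pair in type I collagen, had 28.9, 85.7, 50.4, 48.4 and 85.1 FPKM in PCOS roxadustat mice, against 14.4, 21.9, 16.1 and 28.4 FPKM in control mice. The groups came close, at 28.9 FPKM in the lowest PCOS roxadustat mouse and 28.4 FPKM in the highest control mouse. The log2 difference was 1.48 ± 0.32, adjusted p 0.0298. Its partner Col1a2 (chromosome 6, 4504814 to 4541544) had 11.02, 33.6, 19.0, 26.2 and 27.2 FPKM in PCOS roxadustat mice, against 11.9, 15.9, 10.3 and 31.6 FPKM in control mice. Its groups overlapped, with control mouse 802 second only to 1 PCOS roxadustat mouse, and its log2 difference of 0.46 ± 0.36 did not pass (adjusted p 0.448). That difference was 0.78 without control mouse 802, 0.26 without control mouse 789 and 0.70 without PCOS roxadustat mouse 764. Col3a1, which co-assembles with type I in fibrils, had 53.2, 107, 59.5, 84.1 and 87.7 FPKM in PCOS roxadustat mice, against 44.1, 41.5, 37.5 and 65.6 FPKM in control mice. Control mouse 802 lay within the PCOS roxadustat range, and the log2 difference of 0.71 ± 0.23 did not pass (adjusted p 0.0870). Col5a1 and Col5a2, the common type V chains, averaged 19.0 ± 5.34 and 14.2 ± 3.98 FPKM in PCOS roxadustat mice (SD, n = 5), against 9.27 ± 0.768 and 6.27 ± 0.450 FPKM in control mice (n = 4). Their log2 differences were 0.95 (adjusted p 0.0296) and 1.06 (adjusted p 0.0234).

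The type IV genes Col4a1 and Col4a2 lie head to head on chromosome 8, where their annotated ends overlap by 22 bases in mm39. Col4a1 had 75.3, 117, 132, 114 and 177 FPKM in PCOS roxadustat mice, against 50.3, 65.9, 65.9 and 30.1 FPKM in control mice, with no overlap. The log2 difference was 1.22 ± 0.28, adjusted p 0.0368. Col4a2 had 60.7, 93.0, 104, 84.5 and 149 FPKM in PCOS roxadustat mice, against 35.1, 51.7, 52.2 and 20.9 FPKM in control mice, and differed by 1.32 ± 0.31 (adjusted p 0.0369). In both genes PCOS roxadustat mouse 809 was highest and control mouse 802 lowest. The other type IV chains, which form the special basement membranes of glomerulus, lung and smooth muscle, were scarce: the median of Col4a5, the highest of the 4, was 0.502 FPKM in PCOS roxadustat mice and 0.642 FPKM in control mice. None passed, with log2 differences of 0.08 for Col4a3, -0.16 for Col4a4, -0.28 for Col4a5 and -0.28 for Col4a6, and adjusted p of 0.681, 0.543, 0.549 and 0.218 in that order.

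Of the type VI chains Col6a1 and Col6a2 rose. Col6a1 (chromosome 10, 76544626 to 76562002, minus strand) had 63.5, 104, 119, 91.3 and 137 FPKM in PCOS roxadustat mice, against 34.1, 54.1, 43.4 and 41.6 FPKM in control mice, with no overlap. Its log2 difference was 1.21 ± 0.22, with the lowest adjusted p of the members, 0.0208. Col6a2 had 30.7, 57.6, 56.1, 44.4 and 77.6 FPKM in PCOS roxadustat mice, against 17.0, 26.5, 25.4 and 16.8 FPKM in control mice (log2 1.26 ± 0.25, adjusted p 0.0253). The third chain of the common trimer, Col6a3, had 6.42, 13.9, 18.5, 11.6 and 18.3 FPKM in PCOS roxadustat mice, against 6.65, 6.07, 5.11 and 14.0 FPKM in control mice. Control mouse 802 was again inside the PCOS roxadustat range and PCOS roxadustat mouse 764 inside the control range, and the difference of 0.77 ± 0.34 did not pass (adjusted p 0.173). Of the chains that can take the place of Col6a3, Col6a5 had 0.0407, 1.14, 1.55, 1.12 and 0.511 FPKM in PCOS roxadustat mice, against 0.234, 0.0953, 0.173 and 0.138 FPKM in control mice (log2 0.92 ± 0.33, adjusted p 0.107). Mouse 764 lay under every control mouse and the other 4 above all of them. Col6a6 differed by 0.32 (adjusted p 0.257) and Col6a4 by -0.28 (adjusted p 0.212).

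Both multiplexins rose. Col15a1 (chromosome 4, 47208161 to 47313167) had 84.3, 88.8, 99.5, 102 and 115 FPKM in PCOS roxadustat mice, against 48.5, 65.9, 55.5 and 33.6 FPKM in control mice. The groups did not overlap, and the log2 difference was 0.97 ± 0.19 (adjusted p 0.0249). Col18a1 (chromosome 10, 76888012 to 77002382, minus strand) had 13.5, 20.8, 14.99, 26.6 and 28.1 FPKM in PCOS roxadustat mice, against 6.63, 9.81, 10.3 and 5.71 FPKM in control mice, again without overlap (log2 1.29 ± 0.25, adjusted p 0.0233). It overlaps Slc19a1, a folate carrier gene at 2.43 to 5.94 FPKM in white fat, and whether reads were assigned by strand is not known. Col23a1 was low, at 0.692 ± 0.138 FPKM in PCOS roxadustat mice (SD, n = 5) and 0.304 ± 0.139 FPKM in control mice (n = 4). The lowest PCOS roxadustat mouse, at 0.490 FPKM, was under the highest control mouse, at 0.508 FPKM (log2 0.58 ± 0.15, adjusted p 0.0467).

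Of 4 fibril-associated chains tested, 1 had a positive difference and 0 passed, with a median log2 difference of -0.25. The largest negative log2 differences over all members were -0.60 for Col8a2, a network-forming chain, and -0.41 for the fibril-associated Col20a1, with adjusted p of 0.185 and 0.103. Control mouse 802 was the highest control mouse in 13 members and the lowest in 13 others, and PCOS roxadustat mouse 764 was the lowest of its group in 25 of 33 members.

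**Figure D2:**
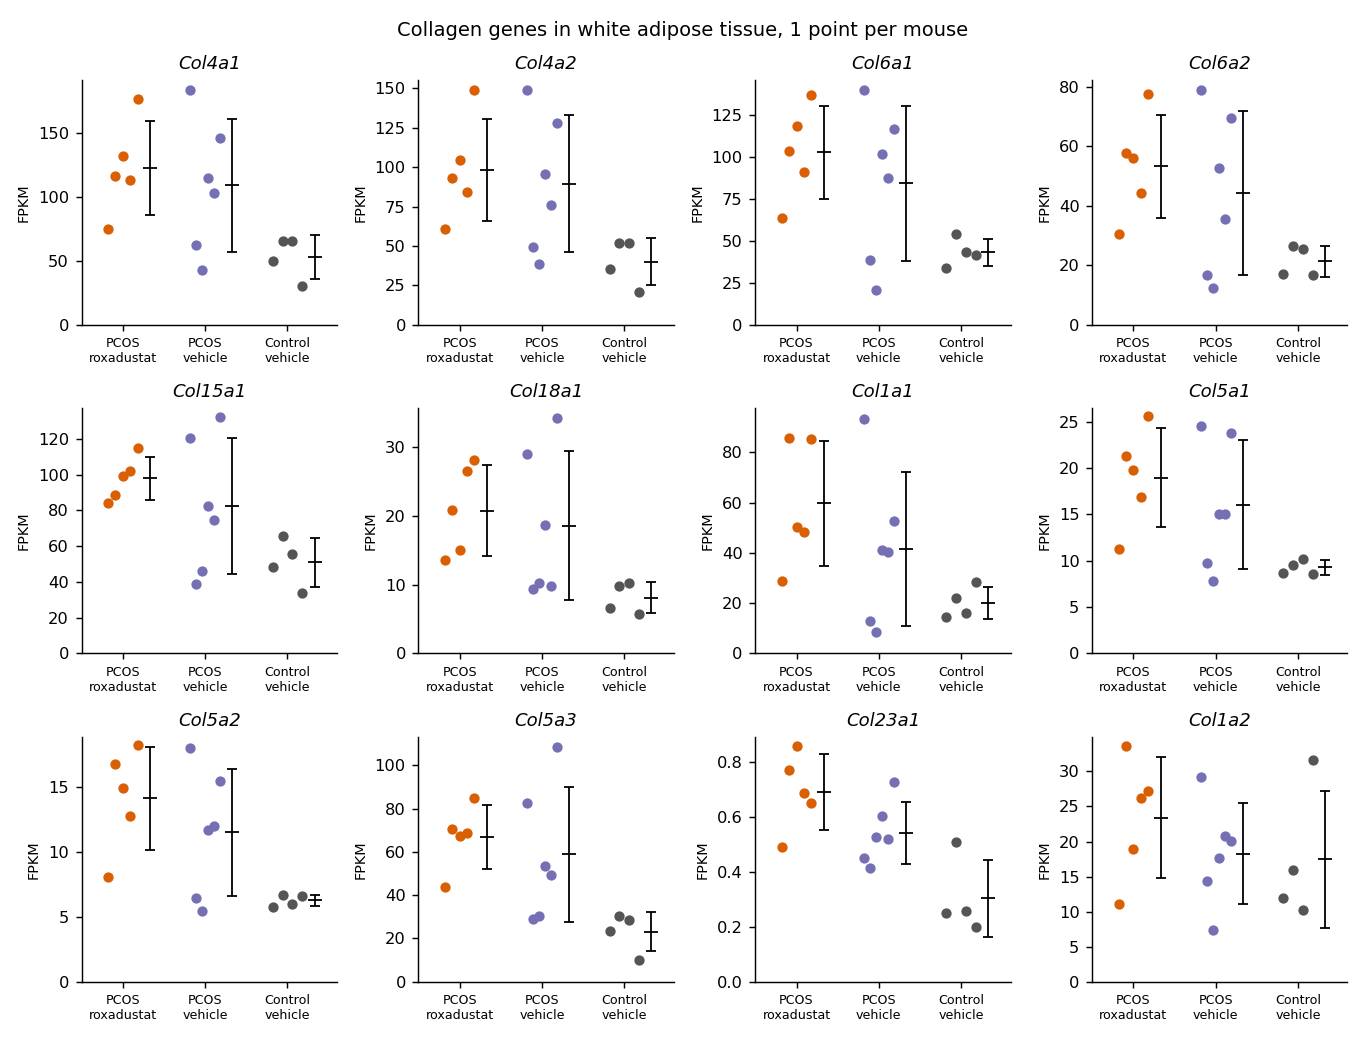
FPKM of 12 collagen genes in white fat, 1 point per mouse, with mean and SD beside each group (PCOS roxadustat n = 5, PCOS vehicle n = 6, control n = 4). For 10 genes all PCOS roxadustat mice lie above all control mice; Col23a1 and Col1a2 overlap, and the PCOS vehicle range overlaps that of each other group in every panel.

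PCOS vehicle against control in white fat, the contrast for letrozole without roxadustat, called 0 of 33 tested members by limma and 0 by voom on recovered reads, against 0.346% of all 15603 genes, 0.0897% higher and 0.256% lower. No member had groups apart, against 1.41% of genes upward and 1.74% downward. At an unadjusted p under 0.05, 8 members were higher and 3 lower, against 5.64% and 6.43% of all genes. The lowest p belonged to Col5a3, at a log2 difference of 1.27 ± 0.40 (adjusted p 0.238), Col6a5 at 0.65 ± 0.21 (adjusted p 0.243) and Col4a2 at 1.08 ± 0.39 (adjusted p 0.287). With sample quality weights 8 members passed, all higher. The 6 PCOS vehicle mice were spread widely: Col4a1 ran over 43.3, 109 and 184 FPKM (lowest, median, highest), against 50.3, 65.9, 65.9 and 30.1 FPKM in control mice. Col1a1 ran over 8.51, 40.8 and 93.3 FPKM in PCOS vehicle mice, against 14.4, 21.9, 16.1 and 28.4 FPKM in control mice, and Col6a1 over 20.7, 95.1 and 140.3 FPKM, against 34.1, 54.1, 43.4 and 41.6 FPKM. In these 3 genes the PCOS vehicle range enclosed all control mice but for the lowest Col4a1 value.

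Roxadustat against vehicle within PCOS white fat called 0 of 31 members by limma and 0 by voom, against 0 of all 15320 genes. No member reached an unadjusted p under 0.05, against 0.946% of genes higher and 0.79% lower, and none had groups apart, against 0.0326% and 0.0653%. The median log2 difference was 0.19 for the members and 0.02 for all genes. The 3 members of lowest p were Col14a1, a fibril-associated chain, with 0.47 (95% interval -0.12 to 1.06), Col3a1 with 0.51 (-0.15 to 1.16) and Col1a1 with 0.82 (-0.34 to 1.97), all at an adjusted p of 1.0. Without PCOS vehicle mouse 785 they were 0.30, 0.28 and 0.45 in that order, and without PCOS roxadustat mouse 795 Col14a1 was at 0.31. Col1a1 had 28.9, 85.7, 50.4, 48.4 and 85.1 FPKM in PCOS roxadustat mice, within the PCOS vehicle range given above. For the basement membrane pair the differences were 0.28 (-0.48 to 1.03) for Col4a1 and 0.23 (-0.52 to 0.98) for Col4a2.

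In liver the test of PCOS vehicle against control called 2 of 27 members, both higher, against 0.82% of all 14021 genes in either direction, 0.442% higher and 0.378% lower. At an unadjusted p under 0.05, 4 members were higher and 1 lower, against 6.96% and 4.26% of genes. The called members were the fibrillar chains Col27a1 and Col5a3, and no type I or III chain passed. Col27a1 (chromosome 4, 63132241 to 63253228) had 16.4, 16.9, 21.7 and 25.7 FPKM in PCOS vehicle mice, against 4.42, 4.88, 10.6 and 4.12 FPKM in control mice. Col5a3 had 39.0, 18.2, 34.6 and 20.01 FPKM in PCOS vehicle mice, against 5.56, 4.44, 13.4 and 7.49 FPKM in control mice. In both genes the groups were apart, and control mouse 802 was the highest of its group. The log2 differences were 1.74 ± 0.29 for Col27a1 (adjusted p 0.0155, a ratio of means of 3.36) and 1.83 ± 0.35 for Col5a3 (adjusted p 0.0359, a ratio of means of 3.62). Groups were apart with PCOS vehicle higher for 3 members, the third being Col11a2, and lower for 2, Col4a3 and Col5a2, against 4.24% and 2.85% of all genes.

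Both liver calls rested on few mice. No member passed without PCOS vehicle mouse 785 or 814, or control mouse 789, 801 or 804, and Col27a1 alone passed without PCOS vehicle mouse 770. The count was 0 with no filter on low values, 0 with the 3 arms in 1 fit and 1 on TPM.

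No other liver member passed in PCOS vehicle against control. Col4a3, an Alport syndrome chain, was near its detection limit, at 0.0224, 0.0437, 0.0246 and 0.0760 FPKM in PCOS vehicle mice (3 to 9 reads), against 0.239, 0.576, 0.249 and 0.235 FPKM in control mice (30 to 56 reads). All PCOS vehicle mice were below all control mice, and the log2 difference on the scale with 0.5 added was -0.59 ± 0.17 (adjusted p 0.213). Col18a1, the dominant liver collagen, had 172, 168, 139 and 128 FPKM in PCOS vehicle mice, against 149, 86.1, 135 and 126 FPKM in control mice, and did not pass (log2 0.31 ± 0.21, adjusted p 0.620). Its neighbour on the overlapping locus, Slc19a1, stood at 1.92 to 3.69 FPKM. Col1a1 had 0.907, 0.425, 0.224 and 1.28 FPKM in PCOS vehicle mice, against 0.871, 1.55, 1.99 and 0.725 FPKM in control mice (log2 -0.59 ± 0.33, adjusted p 0.538), and Col1a2 differed by -0.01, Col3a1 by -0.09, Col4a1 by -0.42 and Col4a2 by -0.05, none of which passed. Over the 27 members the median log2 difference was 0.02, against 0.00 for all genes.

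**Figure D3:**
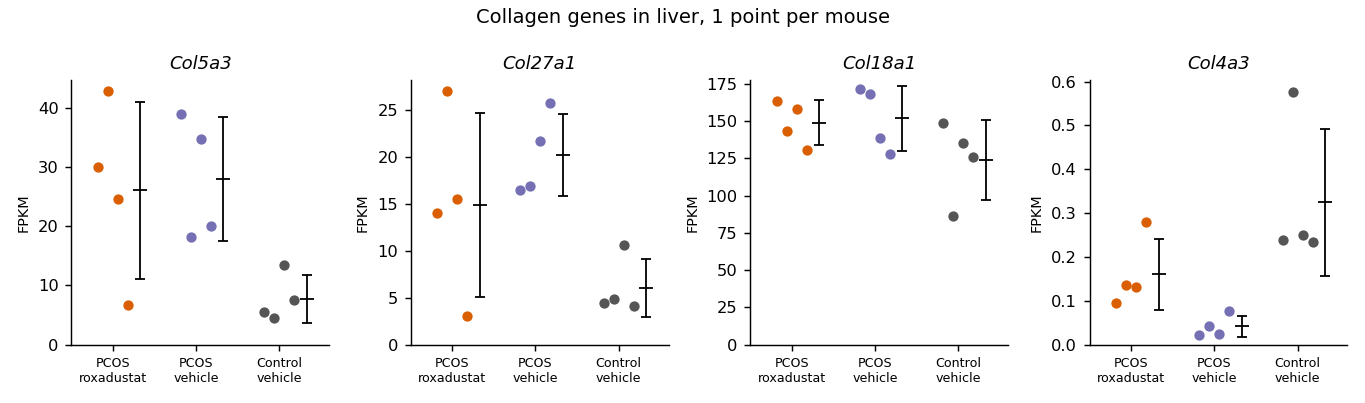
FPKM of Col5a3, Col27a1, Col18a1 and Col4a3 in liver, 1 point per mouse, with mean and SD beside each group of 4. For Col5a3 and Col27a1 the PCOS vehicle mice lie above the control mice and the PCOS roxadustat mice reach from 6.67 to 42.8 and from 3.05 to 27.0 FPKM; Col4a3 is lowest in PCOS vehicle mice.

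Roxadustat against vehicle in PCOS liver called 0 of 27 members by limma and 0 by voom, against 0 of all 14015 genes. At an unadjusted p under 0.05, 2 members were higher and 1 lower, against 1.58% and 1.35% of genes. Col13a1, a transmembrane collagen, had 0.476, 0.641, 0.115 and 0.0505 FPKM in PCOS roxadustat mice, against 0.874, 1.06, 1.05 and 0.486 FPKM in PCOS vehicle mice (log2 -0.78 ± 0.26). Col1a1 had 1.03, 2.98, 1.37 and 1.02 FPKM in PCOS roxadustat mice, against 0.907, 0.425, 0.224 and 1.28 FPKM in PCOS vehicle mice (log2 0.79 ± 0.34). Col5a2 had 0.357, 0.441, 0.441 and 0.660 FPKM in PCOS roxadustat mice, against 0.326, 0.0454, 0.273 and 0.307 FPKM in PCOS vehicle mice (log2 0.41 ± 0.18). Of the 3, the groups were apart for Col5a2, and each had an adjusted p of 1.0. Col1a1 was at 0.52 without PCOS roxadustat mouse 782, and Col5a2 at 0.27 without PCOS vehicle mouse 773. Upward separation, seen for 2 members, Col5a2 and Col4a3, was seen in 0.892% of genes, and downward separation, seen for 0 members, in 0.749%.

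PCOS roxadustat against control in liver called 0 of 25 members by limma and 0 by voom, against 0 of 14152 genes. At an unadjusted p under 0.05, 1 member was higher and 1 lower, against 4.62% and 3.49% of genes, and 22 of 25 differences were positive, against 52.1% of all genes. No member had groups apart, against 1.89% of genes upward and 2.11% downward. Col5a3 had 30.0, 42.8, 24.7 and 6.67 FPKM in PCOS roxadustat mice, against 5.56, 4.44, 13.4 and 7.49 FPKM in control mice. PCOS roxadustat mouse 808 lay among the controls while the other 3 were above them. The log2 difference was 1.54 ± 0.51 (adjusted p 0.519), and without mouse 808 it was 2.08 with an adjusted p of 0.0214, the 1 member then called. Col27a1 had 14.0, 27.0, 15.6 and 3.05 FPKM in PCOS roxadustat mice, against 4.42, 4.88, 10.6 and 4.12 FPKM in control mice, with mouse 808 the lowest of all 8 (log2 1.01 ± 0.55, adjusted p 0.646). Without mouse 808 this difference was 1.61, and without PCOS roxadustat mouse 782 it was 0.63, neither of which passed. Col20a1 had 1.04, 1.01, 1.39 and 1.02 FPKM in PCOS roxadustat mice, against 1.33, 1.70, 1.66 and 2.09 FPKM in control mice (log2 -0.44 ± 0.19, adjusted p 0.614).

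In muscle no member passed in any comparison, by limma or by voom, and leaving out any 1 mouse left the count at 0. PCOS roxadustat against control called 0 of 30 members, against 0.349% of all 13468 genes, 0.282% higher and 0.0668% lower. Here 9 members were lower and 3 higher at an unadjusted p under 0.05, against 5.38% and 5.96% of genes, and the median log2 difference was -0.25, against -0.01 for all genes. Col15a1, whose loss is known to weaken muscle fibres and capillaries in mice, had 5.0, 4.29, 6.51 and 3.14 FPKM in PCOS roxadustat mice, 5.25, 3.84, 7.48 and 6.38 FPKM in PCOS vehicle mice, and 7.50, 8.12, 8.63 and 9.59 FPKM in control mice. Every PCOS mouse of either group was below every control mouse. The log2 differences from control were -0.81 ± 0.18 with roxadustat (adjusted p 0.148) and -0.55 ± 0.18 with vehicle (adjusted p 0.601). Groups were apart with PCOS roxadustat lower for 3 members, Col15a1, Col6a3 and Col20a1, and higher for 2, Col24a1 and Col7a1, against 2.72% and 3.52% of genes.

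Col4a1, the highest muscle collagen, had 15.8, 15.3, 22.3 and 13.6 FPKM in PCOS roxadustat mice, against 21.7, 21.4, 30.5 and 32.8 FPKM in control mice. A single PCOS roxadustat mouse reached the control range (log2 -0.65 ± 0.18, adjusted p 0.250). Col4a2 differed by -0.40 ± 0.17 (adjusted p 0.420) and Col3a1 by -0.60 ± 0.30 (adjusted p 0.481). Col24a1 had a positive difference, with 1.75, 1.47, 2.0 and 1.61 FPKM in PCOS roxadustat mice, against 1.05, 1.18, 0.986 and 0.506 FPKM in control mice (log2 0.65 ± 0.17, adjusted p 0.215). Col7a1 had 4.04, 4.25, 4.12 and 7.50 FPKM in PCOS roxadustat mice, against 2.95, 2.55, 3.61 and 1.69 FPKM in control mice (log2 0.77 ± 0.23, adjusted p 0.276). Of 4 type VI chains tested 0 passed, with log2 differences of -0.53 for Col6a1, -0.36 for Col6a2 and -0.53 for Col6a3. The 1 positive difference was that of Col6a6, at 0.767 ± 0.432 FPKM in PCOS roxadustat and 0.634 ± 0.134 FPKM in control mice (SD, n = 4 each).

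**Figure D4:**
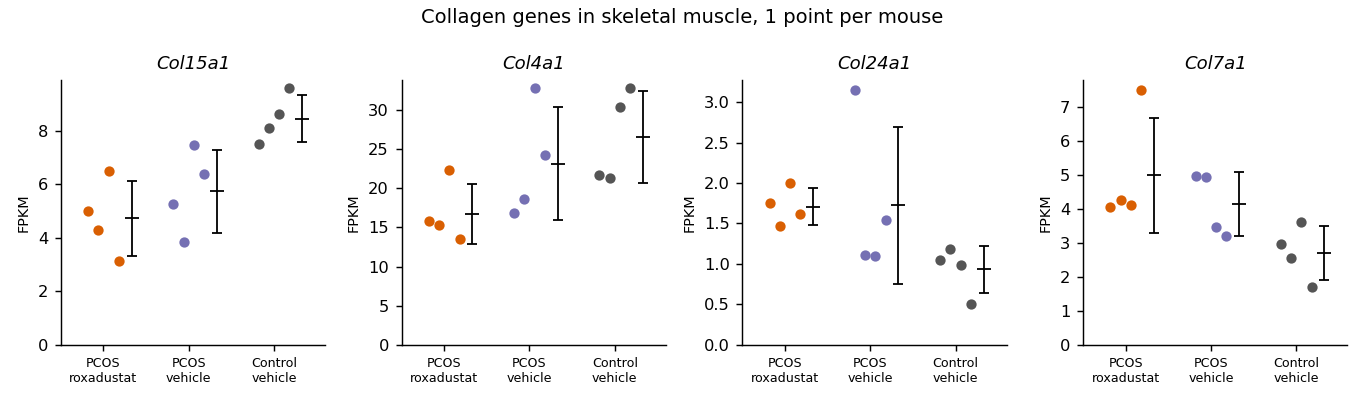
FPKM of Col15a1, Col4a1, Col24a1 and Col7a1 in skeletal muscle, 1 point per mouse, with mean and SD beside each group of 4. Col15a1 is at 7.50 FPKM or more in control mice and under that in all PCOS mice; the Col24a1 and Col7a1 means are lowest in control mice, at 0.931 and 2.70 FPKM.

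PCOS vehicle against control in muscle called 0 of 31 members, against 0.104% of all 13438 genes, 0.0893% higher and 0.0149% lower, with 3 members higher and 1 lower at an unadjusted p under 0.05, against 3.03% and 3.29% of genes. Groups were apart for 0 members upward and for Col15a1 downward, against 1.88% and 1.91% of genes. Beside Col15a1, the lowest p belonged to Col11a2, a cartilage-type fibrillar chain, and to Col7a1. Col11a2 had 1.22, 1.28, 1.32 and 0.964 FPKM in PCOS vehicle mice, against 0.991, 0.632, 0.864 and 0.704 FPKM in control mice (log2 0.39 ± 0.13, adjusted p 0.620). Col7a1 had 4.96, 4.93, 3.45 and 3.21 FPKM in PCOS vehicle mice, against 2.95, 2.55, 3.61 and 1.69 FPKM in control mice (log2 0.55 ± 0.21, adjusted p 0.689). Both genes overlapped between groups. Roxadustat against vehicle in PCOS muscle called 0 of 30 members, against 0 of all 13296 genes, with 0 members higher and 1 lower at an unadjusted p under 0.05, against 1.08% and 1.32% of genes. No member had groups apart, against 0.699% of genes upward and 0.91% downward. Of the 30 differences 24 were negative, with a median of -0.17, against -0.00 for all genes. The 3 of lowest p were Col4a4 at -0.29 (95% interval -0.56 to -0.02), Col4a1 at -0.43 (-0.91 to 0.04) and Col11a2 at -0.31 (-0.71 to 0.10), all at an adjusted p of 1.0. Col4a1 was at -0.25 without PCOS vehicle mouse 785, and Col11a2 at -0.19 without PCOS roxadustat mouse 795 and -0.46 without mouse 808. PCOS roxadustat mouse 808 was the lowest of its group in 20 of 31 members, and PCOS vehicle mouse 785 the highest of its group in 19.

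Whether the effect of letrozole differed between tissues was tested as an interaction over the PCOS vehicle and control libraries of 2 tissues. Col27a1 differed between liver and muscle by 1.68 ± 0.32 on the log2 scale (adjusted p 0.0301), the 1 member of 24 called, against 0.25% of genes. It differed between white fat and liver by -2.18 ± 0.35 (adjusted p 0.00521), again 1 of 24, against 0.63% of genes. Within white fat Col27a1 had 0.116, 0.372 and 0.694 FPKM in PCOS vehicle mice (lowest, median, highest), against 0.711, 0.569, 0.548 and 0.862 FPKM in control mice, so that the liver difference was positive and the white fat difference was -0.44. The white fat and liver call held without any 1 mouse. The liver and muscle call was lost without any 1 of mice 770, 773, 785, 789, 801, 804 and 814, and without mouse 802, or with mouse as a block, 2 members were called. White fat and muscle gave 0 of 27, against 0.0787% of genes, with 8 members higher and 3 lower at an unadjusted p under 0.05, against 9.62% of genes in either direction. At that threshold liver and muscle had 2 members higher and 1 lower, against 6.25% of genes, and white fat and liver 4 higher and 4 lower, against 14.7%. For roxadustat against vehicle the interactions called 0 members and 0 genes by limma. At an unadjusted p under 0.05 they had 4 of 24 members for liver and muscle, against 2.16% of genes, 1 of 23 for white fat and liver, against 1.6%, and 0 of 25 for white fat and muscle, against 1.15%.

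**Figure D5:**
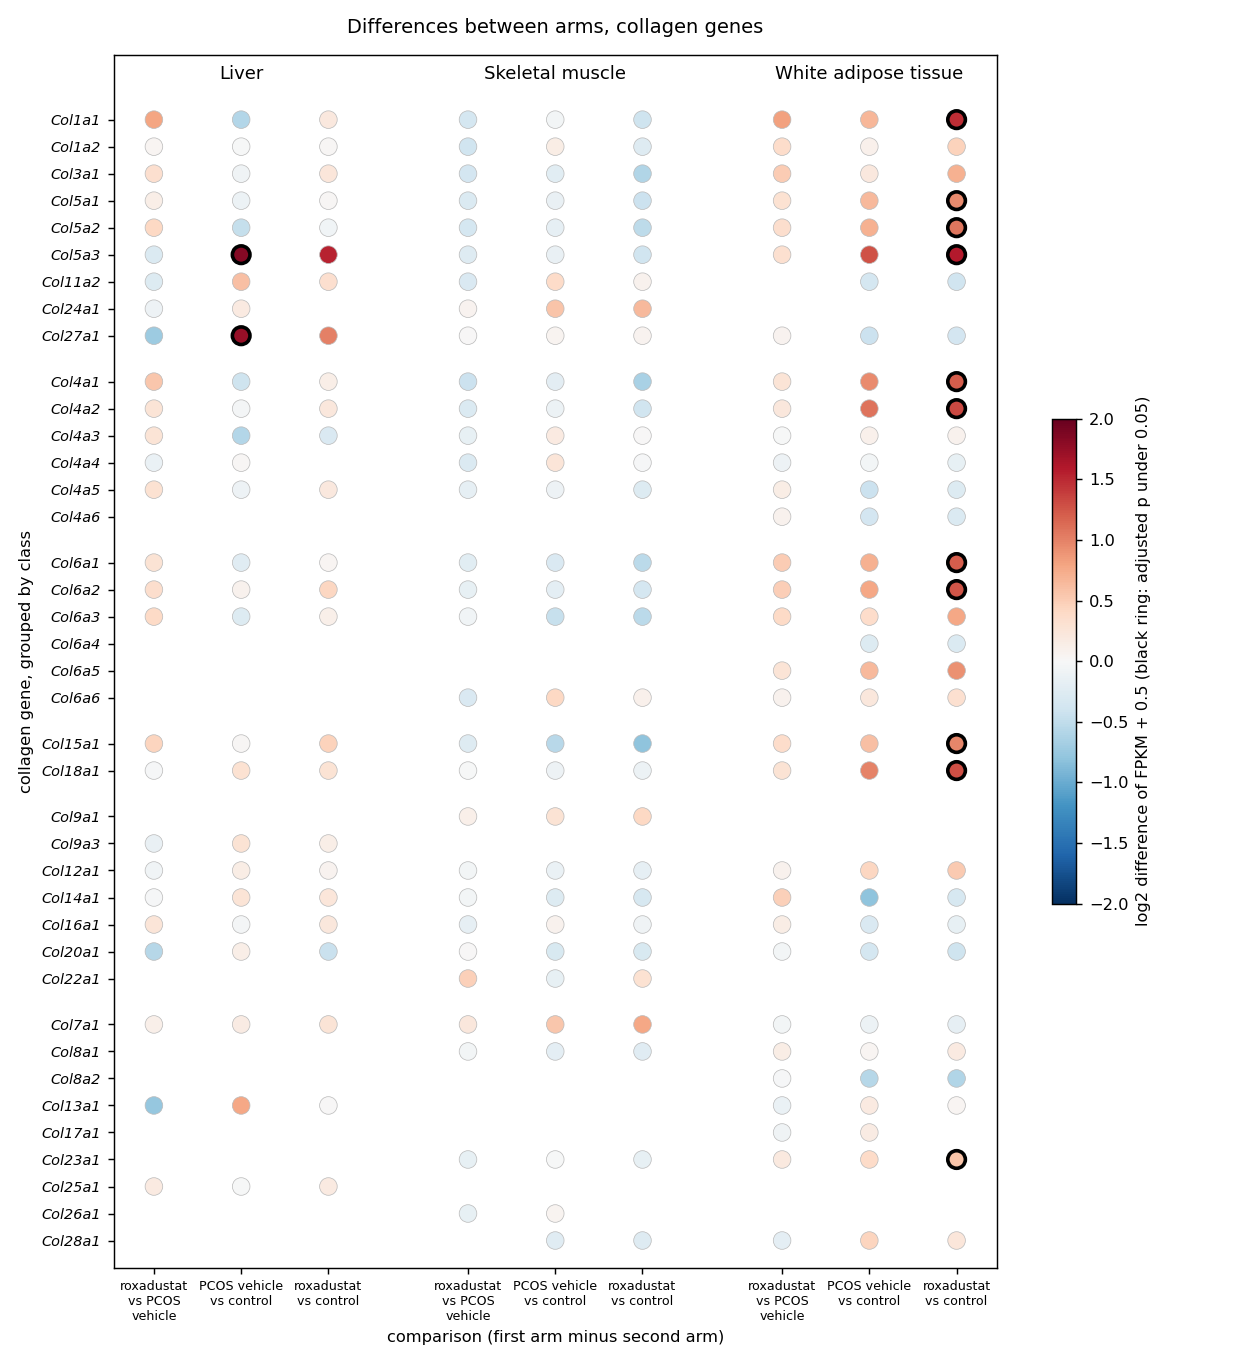
Log2 difference between groups (colour) for each collagen gene (rows, by class) in the 9 comparisons (columns); a black ring marks an adjusted p under 0.05 and a blank a gene not tested. Rings appear for 11 genes in white fat, PCOS roxadustat against control, and for Col5a3 and Col27a1 in liver, PCOS vehicle against control.

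Ratios of partner chains, which do not depend on library scaling, were compared for 7 pairs in the 9 comparisons. None of the 63 exact two-sided permutation tests had an adjusted p under 0.05, and the lowest was 0.200. In white fat the FPKM ratio of Col1a1 to Col1a2 was 1.85 to 3.14 in PCOS roxadustat mice (median 2.62), 0.888 to 3.20 in PCOS vehicle mice (2.14) and 0.898 to 1.56 in control mice (1.29). PCOS roxadustat and control mice did not overlap (exact permutation p = 0.00794, the smallest this design allows). The ratio of Col5a3 to Col5a1 was 3.30 to 4.05 in PCOS roxadustat mice and 1.19 to 3.17 in control mice of white fat, with the same exact p. In liver this ratio was 12.3 to 28.8 in PCOS vehicle mice and 3.31 to 6.60 in control mice (exact permutation p = 0.0286, the smallest possible). In the same liver comparison the ratio of Col1a1 to Col1a2 was apart in the other direction, at 0.268 to 0.951 in PCOS vehicle mice and 0.979 to 1.58 in control mice, with the same exact p. Groups were also apart, lower in PCOS roxadustat than in control mice, for Col3a1 to Col1a1 in white fat and for Col4a1 to Col4a2 and Col6a1 to Col6a2 in muscle. Over all 15 white fat libraries the ratio ran over 1.12 to 1.44 for Col4a1 to Col4a2, 1.26 to 1.70 for Col5a1 to Col5a2 and 1.68 to 2.48 for Col6a1 to Col6a2. It ran more widely for other chains of a shared trimer, at 0.888 to 3.20 for Col1a1 to Col1a2 and 0.101 to 0.338 for Col6a3 to Col6a1.

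Enzymes and partners of collagen were read from lists, in white fat of PCOS roxadustat against control mice, where 3.14% of all genes were called higher and 2.65% lower and the median log2 difference of all genes was 0.02. Of 35 genes of collagen processing tested, 4 rose and 2 fell, with a median log2 difference of 0.31. Those that rose were Lox, which cross-links fibrils (1.02), Adamts2, which cuts the N-propeptide (1.03), Plod3, a lysyl hydroxylase and glycosyltransferase (0.79), and Pcolce2, an enhancer of the C-proteinase (1.86). Plod2, the lysyl hydroxylase of telopeptides, fell by 1.56 and P3h4, a partner of lysyl hydroxylation, fell by 0.81. Of 15 fibril-binding proteins 2 rose, Prelp (2.43) and Dpt (1.07), with a median of 0.11. Of 14 basement membrane partners 2 rose, the nidogens Nid1 (1.22) and Nid2 (1.27), which bridge laminin and type IV collagen, with a median of 0.41. Of 20 genes of matrix degradation 3 rose, the macrophage elastase Mmp12 (3.53) and the inhibitors Timp3 (0.84) and Timp4 (1.39), with a median of 0.44. Of 12 receptors Itgb1, the common beta integrin of collagen receptors, rose (0.65), with a median of 0.34. Of 24 regulators Creb3l1 alone rose (1.12), with a median of 0.25, and a single gene of 24 is close to the 3.14% above. Creb3l1 is a transcription factor known to drive Col1a1 in mouse bone, and its part in the Col1a1 difference was not tested. These list calls come from the same fit as the member calls, which depended on single mice. Their own dependence on single mice is not given here.

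In PCOS vehicle against control white fat Plod2 fell by 1.86 (adjusted p 0.0367) and Prelp rose by 2.30 (adjusted p 0.0471), the 2 called genes of these lists. Of all genes 0.346% were called in that comparison. In liver of PCOS vehicle against control mice the laminin chain Lama3 rose by 1.11 (adjusted p 0.00784), at 0.810 ± 0.148 FPKM against 0.105 ± 0.0585 FPKM in control mice (SD, n = 4 each). There 0.82% of all genes were called. In muscle of PCOS roxadustat against control mice 0 of 16 fibril-binding proteins had a positive difference, with a median of -0.43, and 8 of 31 processing genes did, with a median of -0.13. Of all 13468 genes tested there 47.2% had a positive difference, and their median was -0.01. No gene of these lists passed in muscle, in roxadustat against vehicle of any tissue, or in PCOS roxadustat against control liver.

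Markers of cell types moved in white fat beside these results. A summed FPKM follows the most abundant markers of a list, so it can go against the count of positive markers. The summed FPKM of 7 mesothelial markers was 5.38 to 15.7 in PCOS roxadustat, 4.23 to 14.1 in PCOS vehicle and 24.4 to 56.7 in control mice, with 0 of 7 markers positive in PCOS roxadustat against control and Wt1, Krt19 and Msln lower. That of 8 macrophage markers was 107 to 432 in PCOS roxadustat, 110 to 214 in PCOS vehicle and 89.9 to 162 in control mice, with 7 of 7 tested markers positive, Cd68 higher, and the Kupffer marker Clec4f at 0 in all PCOS vehicle and control mice. That of 8 fibroblast markers overlapped, at 282 to 466 in PCOS roxadustat, 239 to 405 in PCOS vehicle and 205 to 500 in control mice, with Dpt higher and a median log2 difference of 0.02. That of 8 adipocyte markers was 5881 to 18809 in PCOS roxadustat, 6976 to 41189 in PCOS vehicle and 16138 to 22026 in control mice, with 5 of 8 positive and Lep higher, and that of 8 endothelial markers 148 to 266, 220 to 361 and 158 to 224 in the same order, with Egfl7 lower. Mural markers had 2 of 7 positive (median -0.37), muscle fibre markers 5 of 5 (median 1.49) and Schwann markers 4 of 6 (median 0.09) with none passing, and the epithelial keratins Krt8 and Krt18 were lower. In liver 8 stellate cell markers summed to 77.3 to 122 FPKM in PCOS vehicle and 55.6 to 111 FPKM in control mice, with 2 of 8 positive, while 8 fibroblast markers summed to 9.06 to 18.8 FPKM and 16.6 to 21.6 FPKM, Mfap5 being at 0 in all PCOS vehicle mice. The 8 adipocyte markers summed to 7.89 to 11.7 FPKM in PCOS vehicle liver (median 8.63 FPKM, with Plin1, Lep and Retn at 0 in all 4 mice) and 6.44 to 226 FPKM in control liver (median 50.1 FPKM), with 1 of 4 tested markers positive, a median log2 difference of -0.92 and none passing. Of the 6 cartilage markers 3 were listed in liver, namely Cnmd, Hapln1 and Sox9, while Acan, Matn1 and Matn3 were not. Of those tested Cnmd rose by 1.48 in PCOS vehicle against control mice (adjusted p 0.0198), and Hapln1 was at 0 in all control mice. Cnmd alone does not describe the list. In muscle of PCOS roxadustat against control mice 1 of 8 fibroblast markers was positive (median -0.50; sums of 53.1 to 121 FPKM in PCOS roxadustat and 93.1 to 167 FPKM in control mice) and 0 of 7 adipocyte markers (median -1.83; sums of 31.3 to 160 FPKM and 63.7 to 325 FPKM), none of them passing. The part of these cell types in the collagen results was not tested.

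The authors' deposited table, which holds no roxadustat against control comparison, had an adjusted p under 0.05 for 3 members in PCOS vehicle against control liver, namely Col27a1 at a log2 fold change of 1.75, Col5a3 at 1.85 and Col4a3 at -2.95. For PCOS vehicle against control white fat the authors' deposited table had Col6a5 at 1.79, Col5a3 at 1.30 and Col22a1 at 5.90. Col22a1 was listed at 0 in all 4 control mice of white fat. It reached 0.255 FPKM (42 reads) in PCOS vehicle mouse 785, the white fat library with the fewest genes with a read. Its median in PCOS vehicle mice was 0.0187 FPKM. In the other comparisons the authors' deposited table had 0 members under this threshold.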

How the data were processed

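Poly-A RNA of 39 libraries was analysed. Per the submitters' processing notes, the authors used CASAVA 1.8, HISAT2 2.0.5 and DESeq2 1.20.0 with mm39. The tool that counted reads is not given in the sources used here, nor whether it used strand. Per the file headers, each deposited table gave FPKM per library. The authors' p-value and log2 fold change of a comparison stood in the same deposited tables. The authors' FPKM multiplied by gene length gave whole reads for 100% of values within a tolerance of 0.01, and these reads served for depth, the filter and the voom alternative.

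For every comparison limma 3.58.1 (R 4.3.3) was run with a trend on log2(FPKM + 0.5) of its own libraries, so differences of low genes are understated. A gene entered with 15 reads in all and 10 depth-scaled reads in a number of libraries equal to the smaller arm. Two-sided p-values received the Benjamini-Hochberg adjustment over every gene of the fit, with a threshold of 0.05. No mouse gave 2 arms, so arms are unpaired. Each library is 1 mouse per the labels. Members and gene lists were chosen with earlier results of these data known.

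Members named in the text were all called members, the 3 of lowest p where fewer than 3 were called, the 3 highest in each tissue, and the partner chains of types I, III, IV, V and VI with the multiplexins; of the lists, called genes. Members named only for groups that do not overlap or for the lowest difference, and Col22a1, were named after their values were seen. The fits were tested on simulated data of PCOS vehicle against control only. Changes were placed in genes with many reads, so the test does not cover members with few reads or the other comparisons. TPM was computed here by rescaling the authors' FPKM. Promoter sequences came from RefSeq, and coordinates of mm39 from the deposited tables.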

Additional observations from a re-analysis of the deposited data

Results flagged for a closer look

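Col27a1 differed between tissues in PCOS vehicle against control mice. The log2 difference between groups was larger in liver than in muscle by 1.68, and in white fat it was -2.18 relative to liver. The liver and muscle call was lost in 7 of the 8 fits that left out a mouse, and with a pseudocount of 0.1. With that pseudocount and the other alternative settings the difference was 1.68 to 1.69. Muscle Col27a1 averaged 0.274 FPKM in PCOS vehicle and 0.240 FPKM in control mice, under the 0.5 added before the logarithm. A muscle difference at that level is understated, and its part in the liver and muscle result was not tested. White fat Col27a1 was also near that 0.5, averaging 0.381 FPKM in PCOS vehicle and 0.672 FPKM in control mice, so its difference is understated too. The white fat and liver difference was -2.60 to -2.18 over the alternative settings that kept all mice.

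Of 90 groups of a named gene examined for a mouse far from the others, 4 had one, where chance alone gives about 1 in 20. In liver, Col20a1 was 1.39 FPKM in PCOS roxadustat mouse 795, with the next at 1.04 FPKM. Col27a1 was 10.6 FPKM in liver of control mouse 802, with the next control at 4.88 FPKM, and Col4a3 was 0.576 FPKM in liver of control mouse 801, with the next at 0.249 FPKM. In muscle, Col7a1 was 7.50 FPKM in PCOS roxadustat mouse 808, with the next at 4.25 FPKM.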

How the results depend on the processing

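None of the log2 differences followed, those of called members and of the members of lowest p, changed sign under any alternative run (pseudocounts of 0.1 and 1, no filter on low values, voom on recovered reads, TPM, the 3 arms in 1 fit, sample quality weights, and leaving out each mouse). Over these differences 512 settings left the outcome unchanged, 103 lost a call and 10 gained one. The 512 include differences that were not called and stayed so, while only a called difference could lose its call. These counts therefore do not give the share of calls that held. In white fat, PCOS roxadustat against control, the count of 11 members became 1 with no filter, 0 with the 3 arms in 1 fit, and 0 to 14 on leaving out a mouse. PCOS vehicle against control gave 8 members in white fat with sample quality weights, against 0 otherwise. In liver the same comparison's 2 became 0 with no filter, 1 on TPM, 0 with the 3 arms in 1 fit and 0 to 2 on leaving out a mouse, and PCOS roxadustat against control gave 0 to 1 on leaving out a mouse. The liver and muscle interaction gave 0 with a pseudocount of 0.1 and 0 to 2 on leaving out a mouse. With the mouse as a replicate block it gave 2 members against 1, and the block changed no other count: the correlations within a mouse lay between -0.10 and 0.08. Without the filter more genes enter the fit and share the adjustment, and the part of this in the lower counts was not tested. TPM moved the median of all genes by 0.39 in white fat, PCOS roxadustat against control, and by 0.27 in PCOS vehicle against control. The causes of these changes in the counts were not tested. With 4 to 6 mice per group and few reads for many members, small differences were not detectable at this depth.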
